A study of Mus musculus with 6 samples.

Results

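Peroxins are the proteins that build peroxisomes, and 8 of their genes were proposed for this account by name: Pex2, Pex3, Pex5, Pex6, Pex7, Pex11a, Pex14 and Pex19. Rows of the deposited expression table were taken where the gene symbol matched, which gave 7 of the 8 members among 11768 listed genes. Pex11a was not among the listed genes and was not analysed here. They were grouped as genes tied to organelle division by Drp1, the dynamin-related GTPase encoded by Dnm1l, but of the 8 only Pex11a belongs to the PEX11 family that acts in division. The 7 measured members act in protein import and membrane assembly.

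Peroxisomes break down very long-chain and branched fatty acids, make the first steps of ether lipids and hold catalase. Matrix proteins carry a targeting signal that PEX5 or PEX7 recognises in the cytosol. The loaded receptor docks on PEX13 and PEX14, and is afterwards ubiquitinated by RING proteins, among them PEX2 and PEX10, and pulled out of the membrane by an ATPase complex that holds PEX6 and is anchored by PEX26. PEX3, PEX16 and PEX19 insert peroxisomal membrane proteins. PEX11 proteins elongate the organelle before Drp1, recruited by FIS1 and MFF, divides it with the same machinery that divides mitochondria.

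Total RNA sequencing was made from quadriceps, a thigh muscle, of mice on a normal chow diet. The labels give 3 libraries from mice of genotype Control f/f and 3 of genotype mDrp1HET, a heterozygous Drp1 knockout in muscle that the labels also call Drp1-KD. No age, sex or strain is given in the sources used here, and the driver of the deletion is not spelled out, although sample titles and the deposited p-value column carry the tag mck. The labels do not say whether each library came from a separate animal, so the spread behind each p-value is that between libraries and may be technical.

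One library appears under both labels, as Control replicate 1 and as mDrp1HET replicate 3. In 11334 genes (96.3%) the first of these columns had exactly 2 times the reads of the second, and their difference (chi-square per gene 0.00367) was under the sampling noise, against 52.8 or more in each other pair of columns. They are counted as 1 sample, called the shared library below. Results are therefore given for the comparison as labelled (3 against 3 columns) and for the 4-library comparison (Control replicates 2 and 3 against mDrp1HET replicates 1 and 2). Values are log2 CPM, the base 2 logarithm of read counts scaled to library size. Recovered reads totalled between 10394761 and 64728022 per column. They numbered 28664508 and 25019293 in Control replicates 2 and 3, and 15782298 and 10394761 in mDrp1HET replicates 1 and 2. In the 4-library comparison depth therefore cannot be told apart from the label. Dnm1l, the targeted gene, stood at 6.95 and 6.87 in Control replicates 2 and 3, at 6.69 in the shared library, and at 7.30 and 6.73 in mDrp1HET replicates 1 and 2. Libraries labelled mDrp1HET therefore showed no detectable loss of the transcript (4-library log2 fold change 0.11, SE 0.23, limma adjusted p = 0.843; -0.09 relative to the median of all genes). Directions below refer to those labels.

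The 7 members lie apart in the genome, apart from a pair on chromosome 10 (RefSeq positions, GRCm38.p6). Pex3 (Entrez 56535) spans chr10:13523842-13553142 and Pex7 (18634) chr10:19860090-19907674. Pex5 (19305) spans chr6:124396816-124415944, Pex14 (56273) chr4:148960535-149099843 and Pex2 (19302) chr3:5560188-5578596. Pex6 (224824) spans chr17:46711476-46725543 and Pex19 (19298) chr1:172126755-172136497.

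None of the 7 members passed the threshold in either comparison. With limma, Benjamini-Hochberg adjusted over all 11768 genes at 0.05, 0 of 7 passed in the labelled comparison, where 0% of all genes passed, and 0 of 7 in the 4-library comparison, where 0.187% of all genes did (0.144% higher and 0.0425% lower). At an unadjusted p under 0.05 there were 0 of 7 in the labelled comparison (3.9% of all genes, 3.04% higher and 0.858% lower) and 1 of 7, Pex2, in the 4-library comparison (16.6% of all genes). A limma voom fit on the recovered reads also called 0 of 7 in each. The lowest adjusted p of any member was 0.753 as labelled and 0.212 without the shared library. Exact permutation tests on single genes cannot go below p = 0.333 with 2 libraries against 2, nor below 0.1 with 3 against 3.

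**Figure D1:**
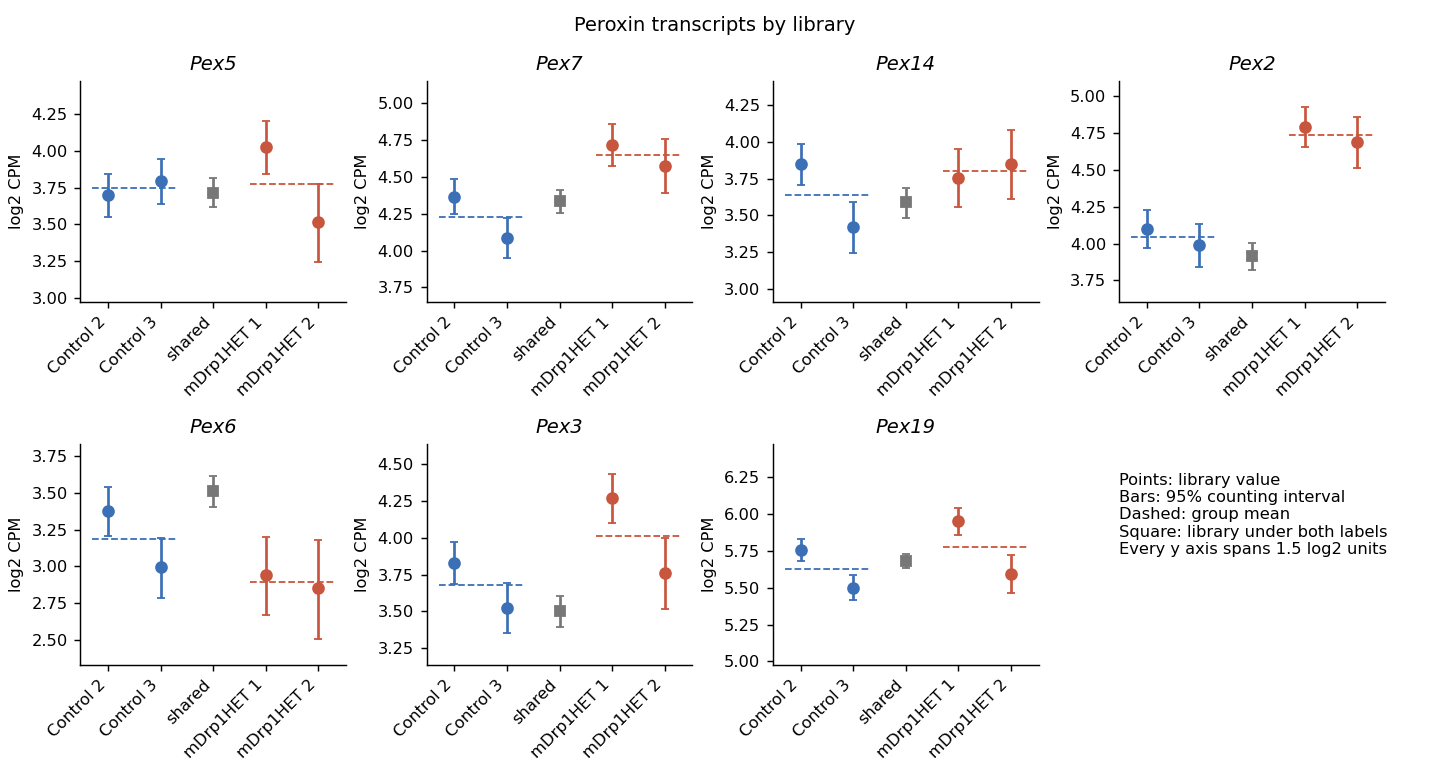
log2 CPM of the 7 measured peroxin members in the 5 separate libraries; bars are 95% counting intervals, dashed lines are means of 2 libraries, and the square is the library found under both labels. Pex2 and Pex7 lay higher in both mDrp1HET libraries than in both Control libraries and Pex6 lay lower, while the other 4 members overlapped. Of all genes, 38.6% lay higher and 11.3% lower without overlap in the same 4 libraries.

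Neither import receptor passed the threshold. Pex7, the receptor for the PTS2 signal at the start of a few matrix enzymes, stood at 4.37 and 4.09 in Control replicates 2 and 3, at 4.33 in the shared library, and at 4.72 and 4.58 in mDrp1HET replicates 1 and 2. Both mDrp1HET libraries lay above both Control libraries, and the shared library lay among the Control values. Relative to the library median, Pex7 stood at 0.46 and 0.41 in Control, 0.61 in the shared library, and 0.66 and 0.73 in mDrp1HET libraries, so on that scale the shared library lay above both Control libraries. Without the shared library the difference came to 0.42 on the log2 scale (SE 0.24, 95% interval -0.11 to 0.95) with a limma adjusted p of 0.402. It was 0.25 with median centring and 0.10 with the GC trend removed. Pex5, the receptor for the PTS1 signal that most matrix proteins carry, stood at 3.70 and 3.79 in Control, 3.72 in the shared library, and 4.03 and 3.52 in mDrp1HET libraries. The mDrp1HET libraries were the highest and the lowest of the 5, and the Control and shared values lay between them. The log2 fold change of 0.03 (SE 0.28, 95% interval -0.58 to 0.63) had the opposite sign with median centring (-0.14), with quantile normalization (-0.15) and with the GC trend removed (-0.014).

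Pex7 and Pex6 were the members with groups apart in opposite directions for which the RefSeq promoter table (GRCm38.p6) had an entry. Of the 8 members 6 matched it, and Pex2 and Pex19 did not. The 250 bases before each annotated start are shown 5′ to 3′ on the gene's strand to set the members side by side. Pex7 lies on the minus strand (chr10:19907675-19907924) and Pex6 on the plus strand (chr17:46711226-46711475). Capitals mark matches, on either strand, to the GC box GGGCGG, the CCAAT box CCAAT or the TATA box TATAAA.
Pex7: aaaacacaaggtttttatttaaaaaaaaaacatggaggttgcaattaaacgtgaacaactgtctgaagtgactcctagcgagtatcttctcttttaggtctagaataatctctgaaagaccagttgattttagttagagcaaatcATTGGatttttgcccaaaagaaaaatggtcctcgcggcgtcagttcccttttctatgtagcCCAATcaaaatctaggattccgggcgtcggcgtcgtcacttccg
Pex6: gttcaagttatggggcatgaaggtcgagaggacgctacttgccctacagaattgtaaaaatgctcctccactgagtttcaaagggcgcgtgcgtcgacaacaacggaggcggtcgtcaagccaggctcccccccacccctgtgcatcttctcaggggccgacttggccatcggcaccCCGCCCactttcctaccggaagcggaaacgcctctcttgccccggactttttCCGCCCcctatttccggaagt
The Pex7 window held 2 CCAAT matches, beginning 105 and 44 bases before the start, and no GC box or TATA box, and its G and C content was below the median of 52.4% over all promoters. The Pex6 window held 2 GC boxes, beginning 73 and 21 bases before the start, and no CCAAT or TATA match, in a window with 58.8% G and C. Of all 32851 promoter windows of this length, 32.7% held a GC box, 33.8% a CCAAT box and 12.4% a TATA box. No printed matches overlap, and a match describes the letters only.

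In the docking complex, neither gene changed past the threshold. Pex14, which receives the loaded receptor, stood at 3.85 and 3.42 in Control, 3.59 in the shared library, and 3.76 and 3.85 in mDrp1HET libraries. The groups overlapped, since Control replicate 2 lay above mDrp1HET replicate 1. Its log2 fold change was 0.17 (SE 0.27, 95% interval -0.43 to 0.76), -0.0030 with quantile normalization, and -0.046 without Control replicate 3. Pex13, its partner, stood at 4.81 and 4.67 in Control, 4.85 in the shared library, and 5.13 and 5.02 in mDrp1HET libraries (log2 fold change 0.33, SE 0.23, limma adjusted p = 0.481). The groups of Pex13 did not overlap, with the mDrp1HET libraries higher, as in 38.6% of all genes. Relative to the library median, Pex13 in the shared library (1.13) lay between mDrp1HET replicates 1 and 2 (1.07 and 1.17), above both Control libraries. In the authors' deposited table Pex13 had the lowest p among the measured peroxins (0.0855). That table holds the shared library under both labels.

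Pex2, a RING subunit of the ligase that ubiquitinates the receptor, had the largest fold change of the members. It stood at 4.10 and 3.99 in Control replicates 2 and 3, at 3.91 in the shared library, and at 4.79 and 4.69 in mDrp1HET replicates 1 and 2. Both mDrp1HET libraries lay above the other 3, and the shared library was the lowest. The mean was 4.04 ± 0.08 (SD, n = 2) for Control and 4.74 ± 0.07 (SD, n = 2) for mDrp1HET. The 4-library log2 fold change was 0.70 (SE 0.24, 95% interval 0.17 to 1.22), a fold of 1.62, with limma adjusted p = 0.212 and unadjusted p = 0.0134. The reads behind these values numbered 268 to 974 per column, and counting error alone would give an SE of 0.0742 on that log2 fold change. Relative to each library's median gene, Pex2 stood 0.19 and 0.32 above it in Control, 0.19 in the shared library, and 0.73 and 0.84 in mDrp1HET libraries, so the groups stayed apart on that scale too.

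The size of the Pex2 difference depended on the treatment of the shared library and of GC content. As labelled, the log2 fold change was 0.46 (SE 0.24, 95% interval -0.08 to 1.01). It was 0.74 with the shared library counted only as Control (adjusted p = 0.0905) and 0.42 with it counted only as mDrp1HET (adjusted p = 0.97). With each library's trend on GC content removed it was 0.35 (adjusted p = 0.42). Over the 16 alternatives of the 4-library comparison the adjusted p of Pex2 ranged from 0.0905 to 0.97. Pex10, another RING subunit, stood at 3.50 and 3.04 in Control, 3.13 in the shared library, and 3.84 and 3.34 in mDrp1HET libraries. Its groups overlapped (log2 fold change 0.32, SE 0.30).

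Pex6, an ATPase that extracts the receptor, was the only one of the 15 measured peroxins with a negative log2 fold change in the 4-library comparison; relative to the median of all genes, 7 of the 15 lay below, among them Pex5, Pex14 and Pex19. It stood at 3.37 and 2.99 in Control, at 3.51 in the shared library, and at 2.94 and 2.85 in mDrp1HET libraries. Both mDrp1HET libraries lay below the other 3, but Control replicate 3 was close to them. It differed by -0.29 on the log2 scale (SE 0.29, 95% interval -0.93 to 0.36), with a limma adjusted p of 0.647. The difference was -0.45 with median centring, -0.16 with the GC trend removed and -0.08 with the shared library counted only as mDrp1HET. Without Control replicate 2 it was -0.10. Reads were as few as 75 in mDrp1HET replicate 2, and counting alone gives an SE of 0.125.

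Pex26, the membrane anchor of the ATPase complex, stood at 1.97 and 1.83 in Control, at 1.65 in the shared library, and at 2.02 and 2.12 in mDrp1HET libraries (log2 fold change 0.17, SE 0.34). Its reads numbered 45 to 202 per column, and counting alone gives an SE of 0.174 on that log2 fold change. A ratio to Pex6 carries the counting error of both genes. A ratio within a library does not depend on how libraries are scaled. The log2 ratio of Pex6 to Pex26 was 1.40 and 1.16 in Control, 1.87 in the shared library, and 0.92 and 0.74 in mDrp1HET libraries. Without the shared library the groups did not overlap. The shared library lay above both Control libraries, and counted as mDrp1HET it would make the groups overlap. The 4-library difference was -0.46, with SDs of 0.17 and 0.13 (n = 2 each). Ratios were computed after the values were known, the smallest exact permutation p for each is 0.333, and unequal change is all that a ratio shows. Transcript GC content also set these genes apart, at 63.0% in Pex6 and 55.2% in Pex26. Across 11211 genes the 4-library log2 fold change was lower at higher GC content (Spearman -0.39; genes are no independent replicates), and its part in this ratio was not tested.

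**Figure D2:**
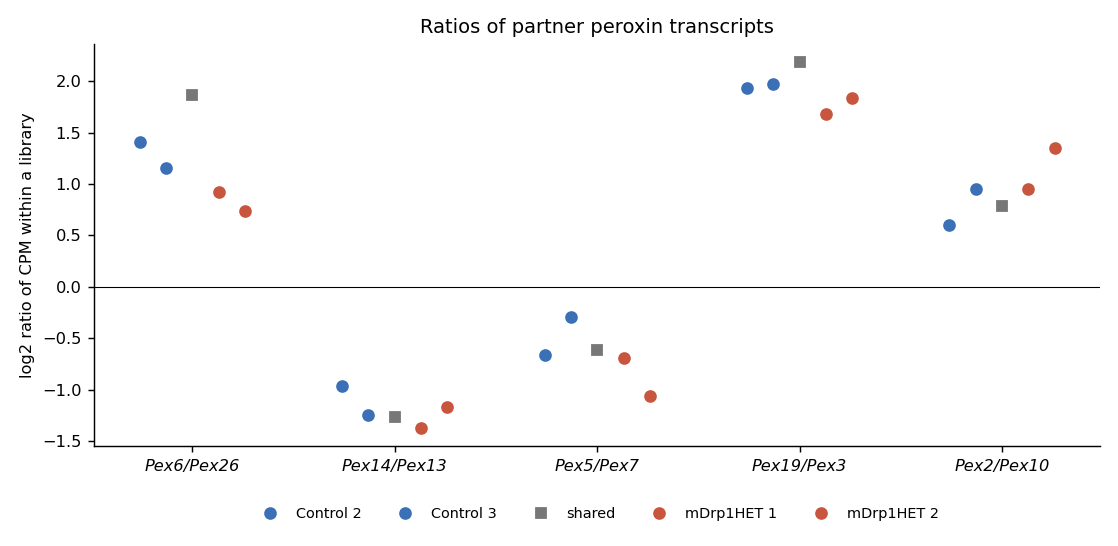
log2 ratio of CPM between peroxins that work together, in each of the 5 separate libraries (circles: Control in blue, mDrp1HET in red; square: shared library). The Pex6 to Pex26 ratio lay at 1.40 and 1.16 in the Control libraries, 1.87 in the shared library, and 0.92 and 0.74 in the mDrp1HET libraries. Without the shared library, the groups were also apart for Pex5 to Pex7 and Pex19 to Pex3. They overlapped for Pex14 to Pex13 and Pex2 to Pex10. Counted as mDrp1HET, the shared library would make the groups of each ratio overlap.

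Among the other partners, the ratio of Pex14 to Pex13 and that of Pex2 to Pex10 overlapped between groups. The log2 ratio of Pex5 to Pex7 was -0.67 and -0.29 in Control, -0.62 in the shared library, and -0.69 and -1.06 in mDrp1HET libraries. The groups nearly touched. That of Pex19 to Pex3 was 1.93 and 1.98 in Control, 2.18 in the Control column of the shared library, and 1.68 and 1.83 in mDrp1HET libraries. As for Pex6 to Pex26, the groups of these 2 ratios did not overlap without the shared library, with mDrp1HET lower. Counted as mDrp1HET, the shared library would make them overlap.

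The membrane assembly genes did not separate the groups. Pex3, the membrane anchor for PEX19, stood at 3.83 and 3.53 in Control, at 3.50 in the shared library, and at 4.27 and 3.76 in mDrp1HET libraries. mDrp1HET replicate 1 was the highest, and mDrp1HET replicate 2 lay below Control replicate 2. The log2 fold change was 0.34 (SE 0.28, 95% interval -0.28 to 0.95), and -0.14 with the GC trend removed. It was 0.085 without mDrp1HET replicate 1 and 0.59 without mDrp1HET replicate 2. Pex3 had the lowest transcript GC content of the members (38.5%). Pex19, the chaperone of newly made membrane proteins, stood at 5.76 and 5.50 in Control, at 5.68 and 5.69 in the 2 columns of the shared library, and at 5.95 and 5.60 in mDrp1HET libraries. Its log2 fold change of 0.14 (SE 0.23, 95% interval -0.36 to 0.65) became -0.022 with median centring, -0.017 with quantile normalization and -0.085 with the GC trend removed. Pex16, which works with PEX3, had a log2 fold change of 0.26 (SE 0.30).

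None of the 6 listed division genes passed. All 6 had a log2 fold change above 0, as did 69.6% of all genes, and 2 of 6 lay above the median of all genes. Fis1, an outer membrane adaptor, stood at 5.11 and 4.92 in Control, 5.13 in the shared library, and 5.87 and 5.28 in mDrp1HET libraries (log2 fold change 0.56, SE 0.25, limma adjusted p = 0.3). Mff, the main Drp1 receptor, stood at 6.42 and 6.18 in Control, 6.33 in the shared library, and 6.90 and 6.62 in mDrp1HET libraries (log2 fold change 0.46, SE 0.22, limma adjusted p = 0.311). For both genes, and for Mief1, the groups did not overlap, with the mDrp1HET libraries higher, as in 38.6% of all genes. Mief1 stood at 4.28 and 4.07 in Control, 4.40 in the shared library, and 4.33 and 4.31 in mDrp1HET libraries. Relative to the library median its groups overlapped (0.37 and 0.39 in Control, 0.27 and 0.46 in mDrp1HET libraries). The adaptors Mief1 and Mief2 and the tail-anchored Gdap1 had log2 fold changes of 0.15, 0.09 and 0.02. Of the PEX11 family, Pex11g stood at 0.81 and 0.57 in Control, 0.72 in the shared library, and 1.07 and 0.33 in mDrp1HET libraries. It rested on 13 to 106 reads per column (log2 fold change 0.01, SE 0.45).

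**Figure D3:**
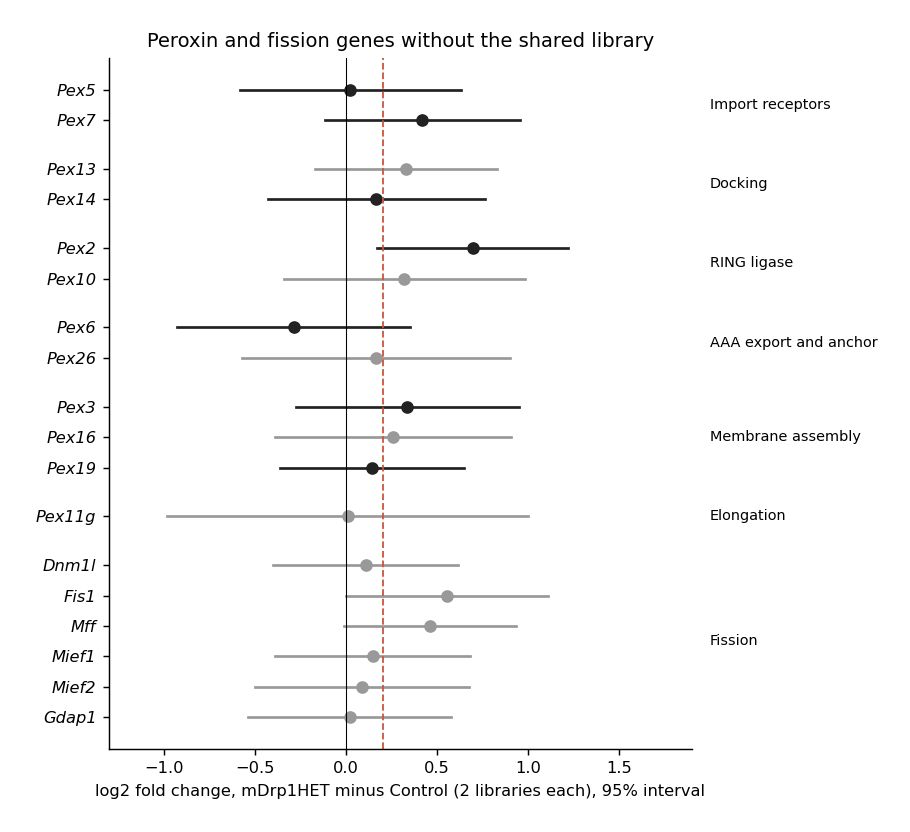
4-library log2 fold changes with 95% intervals for 12 of the 15 measured peroxins (members in black) and 6 fission genes, ordered by role; the dashed line is the median of all genes (0.20). The interval of Pex2 (0.17 to 1.22) is the only one among the members that does not reach 0, and the point of Pex6 (-0.29) is the only negative one. Intervals are not adjusted for the number of genes: 16.6% of all genes had an unadjusted limma p under 0.05. The limma adjusted p of Pex2 was 0.212.

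As a group the members lay close to all genes. In the 4-library comparison 6 of 7 members had a log2 fold change above 0, where 69.6% of all genes did. Their median was 0.17 and that of all genes 0.20, which median centring moved to 0.04 for all genes and 0.00095 for the members. Relative to the median of all genes, 3 members lay above and 4 below. Higher groups without overlap were found in 2 of 7 members (38.6% of all genes) and lower ones in 1 of 7 (11.3% of all genes). The 8 measured peroxins outside the members had a median of 0.29, with 8 of 8 above 0 and 0 called. In the labelled comparison the members' median was 0.11 against 0.13 for all genes, and the single log2 fold changes were 0.02 for Pex5, 0.28 for Pex7, 0.11 for Pex14, -0.19 for Pex6, 0.23 for Pex3 and 0.10 for Pex19.

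The members ranked the libraries much as other genes did. mDrp1HET replicate 1 was the highest of the 4 libraries in 5 of 7 members (55.0% of all genes), and Control replicate 3 was the lowest in 5 of 7 (49.4% of all genes). The median gene stood at 4.06 log2 CPM in mDrp1HET replicate 1 and at 3.67 in Control replicate 3, with 3.90 in Control replicate 2 and 3.85 in mDrp1HET replicate 2. The 100 most abundant genes took 52.7% of the reads in mDrp1HET replicate 1 and 61.8% in Control replicate 3. Pex2, Pex6 and Pex7 kept their groups apart relative to the library median. On that scale Pex6 stood at -0.53 and -0.68 in Control, -0.21 in the shared library, and -1.12 and -0.999 in mDrp1HET libraries. The share of all genes with groups apart on that scale was not counted, so nothing particular to these members can be read from it.

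Levels can be compared between genes only per length, as CPM per kilobase of annotated exon. On that scale Pex19 was the most abundant peroxin, with a median of 16.4 over 5 separate libraries (14.5 to 19.8), higher than 82.8% of the 11211 genes with a length. Pex2 followed at 7.55 (6.63 to 12.2). Pex14 at 6.73 (5.34 to 7.20) and Pex3 at 6.08 (5.07 to 8.63) were next among the members, and the ranges of these 3 overlapped. Pex5 had 4.004 (3.49 to 4.96), Pex7 2.55 (2.10 to 3.25) and Pex6 2.49 (2.26 to 3.57), and neither Pex5 and Pex6 nor Pex6 and Pex7 differed beyond their ranges. The value of Pex7 depends on an annotated exon length of 8099 bases, the longest of the members. The lowest peroxins were Pex26 (0.957) and Pex11g (0.574).

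**Figure D4:**
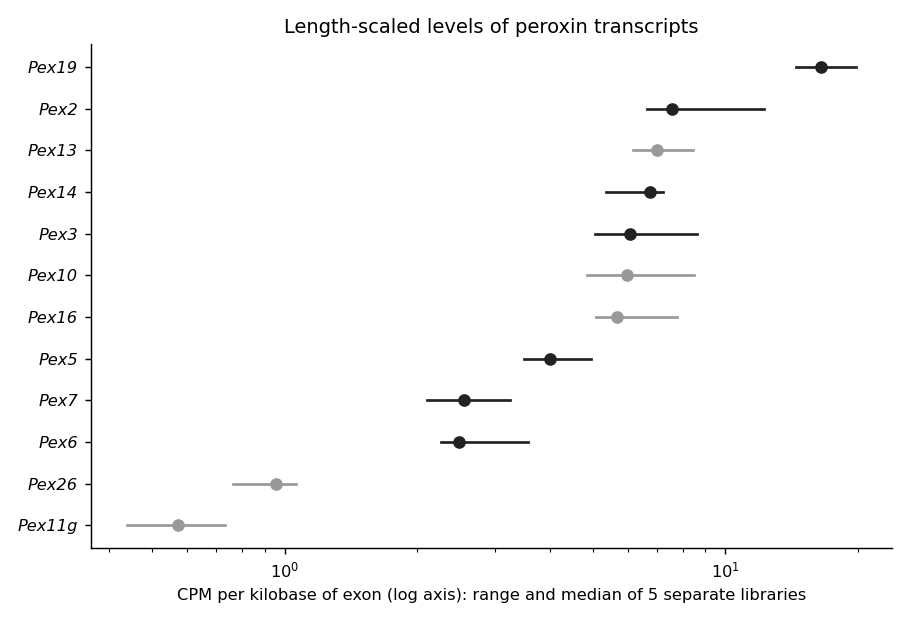
Range and median of CPM per kilobase of exon (log axis) over 5 separate libraries for 12 of the 15 measured peroxins, members in black. Pex19 has a median of 16.4 and its range does not reach that of any other peroxin shown, while Pex11g has a median of 0.574.

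Other genes listed under peroxisome topics, with the remaining peroxins and the fission genes, made lists of 77 measured genes. Where their products lie in the cell was not checked, and some may act in other organelles. In the 4-library comparison 0 of 77 passed. At an unadjusted limma p under 0.05, 3 were higher and 3 lower (13.3% and 3.26% of all genes). Peroxisomal fatty acid oxidation had 17 measured genes, 8 above and 9 below 0, with a median of -0.01. In this list the carnitine acetyltransferase Crat had a log2 fold change of -0.71 (SE 0.22), with a limma adjusted p of 0.194. The reductase Pecr was at 0.64 (SE 0.29) and Phyh, which starts phytanic acid breakdown and is imported through PEX7, at -0.51 (SE 0.37). The 4 plasmalogen genes had a median of 0.45, from Agps, an enzyme that PEX7 also imports (0.50, SE 0.24), Far1 (0.41), Far2 (0.49) and Gnpat (-0.19).

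Membrane carriers and tethers had a median of 0.25 over 11 genes, with Mpv17 at 0.67 (SE 0.26), Abcd4 at 0.78 (SE 0.42), Slc25a17, a carrier of cofactors, at 0.57 (SE 0.32) and Acbd4 at 0.48. Antioxidant and other matrix enzymes had a median of 0.18 over 13 genes, with Nudt12 at 0.57, Idh1, a source of NADPH, at 0.50, Nudt19 at 0.33 and Prdx5, a peroxidase, at 0.44. Ubiquitin and turnover factors had a median of 0.02 over 10 genes, with Epas1 at -0.38, Trim37, which ubiquitinates PEX5, at 0.33, Stub1 at -0.32 and Usp9x at 0.22. Among 8 PPAR regulators the median was 0.09, with the coactivator Ppargc1b at -0.90 (SE 0.34, limma adjusted p = 0.243), Rxra at -0.33, Pparg at 0.55 and Ppard at -0.52. None of the named genes passed.

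**Figure D5:**
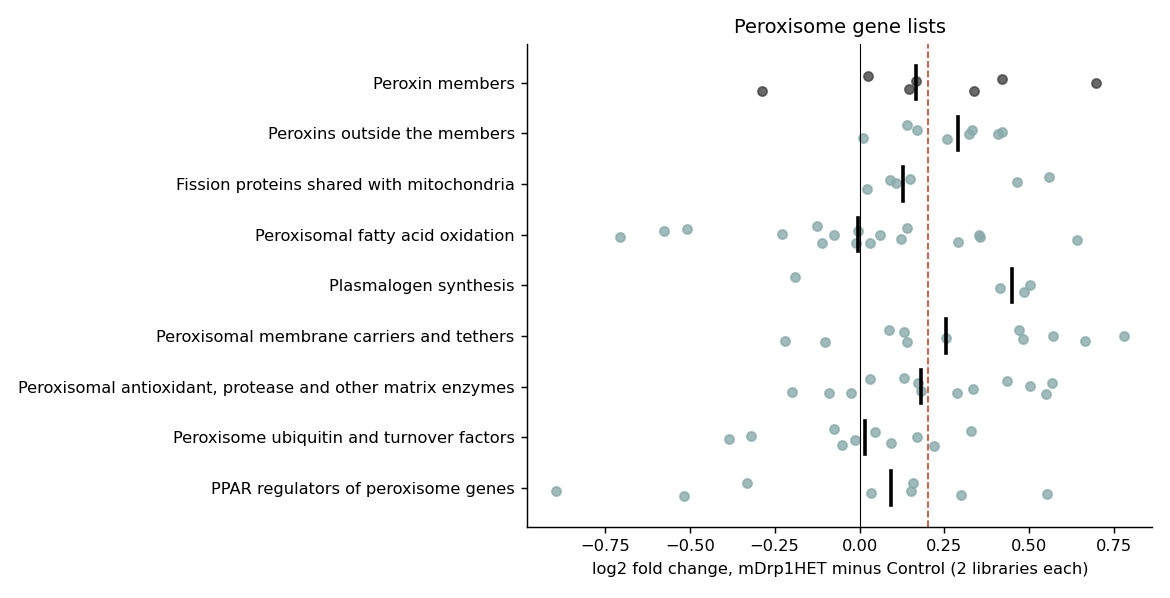
4-library log2 fold changes of the measured genes of each peroxisome list (points, with a bar at the list's median); the dashed line is the median of all genes (0.20). The members spread from -0.29 to 0.70 around a median of 0.17, and fatty acid oxidation genes from -0.71 to 0.64 around -0.01.

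Markers of muscle fibres and of other cell types were read beside these values, and 0 markers of any list passed. All 10 skeletal fibre markers were listed, and their summed level was 171727 and 172851 CPM in Control, 183728 in the shared library, and 125450 to 131797 in mDrp1HET libraries. Much of this sum is the myosin Myh4 (log2 fold change -0.89, SE 0.35), and Myh1 was at -1.04 (SE 0.37). The list's median was -0.15, with 8 of 10 markers below 0 and 2 above, Ckm at 0.18 and Tnni2 at 0.23. Actn3 and Mb were each at -0.02. Lower groups without overlap were found in 5 of 10 fibre markers (11.3% of all genes) and higher ones in 1 (38.6% of all genes). The 10 fibro-adipogenic markers summed to between 1972 and 2980 CPM in Control, 2297 in the shared library, and 3497 and 3811 in mDrp1HET libraries. The 9 listed macrophage markers of 10 summed to between 196 and 322 CPM in Control, 249 in the shared library, and 371 and 416 in mDrp1HET libraries. The 8 adipocyte markers summed to 199 and 438 CPM in Control and to 372 and 655 in mDrp1HET libraries, with 628 in the shared library. The endothelial (8 listed), smooth muscle (6 of 7) and Schwann cell (4 of 6) sums overlapped between groups. Of 5 satellite cell markers only Cdh15 was listed, at 16.0 and 16.8 CPM in the Control libraries, 12.6 in the shared library, and 11.2 and 15.4 in those labelled mDrp1HET. The part of these markers in the Pex2, Pex6 and Pex7 differences was not tested, and in whole tissue fewer cells of a type and less RNA per cell cannot be told apart.

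Genes most like Pex2 over the 5 separate libraries were Ispd, Psmb3 and Zfp692, each with a Pearson r of 0.999. Those most like Pex7 were Mospd2, Gm14443 and Pitpnb, also at 0.999. With 5 points that share library scaling, 797 genes had an r above 0.95 with Pex2 and 698 with Pex7, so these names describe a common profile only.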

How the data were processed

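RNA with an integrity number above 7 was depleted of ribosomal RNA and made into stranded libraries, combined in 2 pools, per the labels' protocols. Which pool held which library was not stated. The authors deposited log2 CPM values and 1 p-value for each gene, per the file headers. FastQC, DESeq2 1.30.0 and the build GRCm38 are named, without roles, per the submitters' processing notes, and no aligner or counter is. The table lists only genes above 1 CPM in every column (lowest value 0.029 on the log2 scale). Each column's constant step gave back whole reads for 100% of values (tolerance 0.01 reads). Intervals from reads cover counting error only.

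The log2 CPM of all 11768 genes were tested in limma 3.58.1 under R 4.3.3, allowing the variance to follow intensity, two-sided, Benjamini-Hochberg adjusted, threshold 0.05, for the 3 against 3 columns as labelled and for 2 against 2 without the shared library. The fit was tested on simulated data with independent noise. That simulation held no shared library and no difference in depth between groups, so it does not cover these limits of the data. The members, lists and tests were chosen with earlier results of these data known. Named genes are all members, the measured peroxins and fission genes, up to 4 genes with the smallest p in each other list, and the 3 most correlated genes for 2 members; a few genes that this rule names are not reported here, and counts and medians of lists include them. Alternatives were other scalings, an offset of 1 CPM, a minimum mean log2 CPM of 1 or 3, array weights, voom, limma without its trend or with robust empirical Bayes, each library left out, and the shared library counted once. Removal of a GC trend (loess, span 0.3) was added after the data were seen. Exon lengths and GC content came from GENCODE M21 through Entrez numbers and were found for 95.3% of genes.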

Additional observations from a re-analysis of the deposited data

How the results depend on the processing

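The count of members and that of the 77 peroxisome list genes called was 0 under each alternative of both comparisons. The count over all genes moved more: in the 4-library comparison, against 22 called, it was 0 with median centring, 0 without the intensity trend, 0 with the GC trend removed, 1 with quantile normalization, 202 with robust empirical Bayes, 51 with voom, 2 with the shared library counted once in Control and 2 with it in mDrp1HET, and 77 to 325 with 1 library left out, where the lone sample is assumed to vary like the other group. As labelled it ranged from 0 to 2 with 1 column left out, against 0. The cause was not tested. Pex2, Pex6 and Pex7 kept their sign in the 16 alternatives of each comparison (4-library ranges 0.35 to 0.75, -0.50 to -0.08 and 0.10 to 0.56). Many of these could not change it. In the 4-library comparison the minimum levels, array weights, robust empirical Bayes and the fit without the trend leave the fold change as it was. Where the groups of a gene do not overlap, leaving out 1 of the 4 libraries cannot turn the sign either. The kept signs are therefore no separate support for these members.

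Other members turned negative. Pex14 became -0.0030 (4-library) and -0.0026 (labelled) with quantile normalization. Pex19 became -0.022 with median centring, -0.017 with quantile normalization and -0.085 with the GC trend removed in the 4-library comparison, and as labelled -0.013, -0.011, -0.055 and, with array weights, -0.020. Pex3 became -0.14 (4-library) and -0.10 (labelled) with the GC trend removed. Pex5 became -0.14 with median centring, -0.15 with quantile normalization and -0.014 with the GC trend removed in the 4-library comparison, and as labelled -0.094, -0.10, -0.0095 and, with array weights, -0.16. The cause was not tested.

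With 1 library left out of the 4, Pex14 ranged from -0.046 to 0.38, Pex19 from -0.032 to 0.32, Pex3 from 0.085 to 0.59 and Pex5 from -0.23 to 0.28. With 1 column left out as labelled, Pex19 ranged from -0.0040 to 0.17 and Pex5 from -0.12 to 0.13. No paired analysis was possible because the labels give the groups no shared replicate numbers. Counting error alone gave an SE of 0.0486 (Pex19) to 0.125 (Pex6) on the 4-library log2 fold change, against limma SEs of 0.23 and 0.29.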
